A study of Mus musculus with 2 samples.

Results

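Ccnd2-dominant neuroblast-like cells made up 416 of the 4841 cell barcodes measured in the lateral striatum of mice after a stroke in early life, 196 in the ipsilateral and 220 in the contralateral library. They were chosen by measured values. A barcode had to hold at least 500 detected genes and at most 15% of its unique molecular identifiers (UMIs, tags that let each captured RNA molecule be counted once) from mitochondrial genes, which 4418 barcodes did. Per 10000 UMIs of the barcode, Dlx1, Dlx2 and Dlx6os1 had to sum to at least 3, the precursor genes Pdgfra, Cspg4 and C1ql1 to under 5, and the myelin genes Mobp, Mog and Mal to under 40. Mki67 and Top2a, genes of dividing cells, had to sum to under 3 UMIs, and Meg3 could not have more UMIs than Ccnd2. The levels of these genes among the chosen cells are therefore a description.

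The study set the 2 sides of the brain against each other in male C57/BL6 mice. The middle cerebral artery had been occluded (MCAO) for 60 minutes on postnatal day 10, and the cells were taken after 2 weeks of reperfusion. The ipsilateral library held lateral striatum of the occluded side and the contralateral library the same region of the opposite side, also from operated mice; no unoperated animals were analysed here. Each library pooled 3 animals before dissociation and held cells that a sort had selected by A2B5, by O4 or by both, surface antigens of the oligodendrocyte lineage, and that the labels call oligodendrocytes. Whether the 3 animals were the same on both sides is not stated in the labels. With 1 library per side there is no replicate check, no test was made across sides, and every interval below is a 95% interval for counting error only. The ipsilateral library held 2775 barcodes and 54788795 UMIs and the contralateral library 2066 barcodes and 36063045 UMIs, with no barcode sequence in both. Among the Ccnd2-dominant cells the depth was closer, with 2200907 ipsilateral and 2319933 contralateral UMIs, a median of 10777 ipsilateral and 10128 contralateral UMIs per cell, and a median of 4.39% ipsilateral and 4.51% contralateral mitochondrial UMIs.

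Neuroblasts are young neurons that still migrate. In the postnatal brain they arise in the subventricular zone beside the striatum from dividing progenitors that express Dlx genes, and most of them travel to the olfactory bulb, where they become GABA-releasing interneurons. After stroke in rodents, some have been found in the striatum. Ccnd2 encodes cyclin D2, which drives the first growth phase of the cell cycle and is high in late progenitors and early neuroblasts, whereas the long noncoding RNA Meg3 rises as neurons mature.

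All 5 genes that mark such cells were at high levels and close between sides. The rule chose cells by Dlx6os1 and Ccnd2, so of the 5 only Dcx, Stmn2 and Tubb3 were not used in the choice. With levels in CPM, the UMIs of a gene per 1000000 UMIs summed over the cells, doublecortin (Dcx), a microtubule protein of migrating neurons, was at 705 CPM in ipsilateral and 786 CPM in contralateral cells. Dlx6os1, the antisense RNA of a Dlx gene of inhibitory neurons, was at 1137 ipsilateral and 1250 contralateral CPM. Ccnd2 was at 5497 ipsilateral and 5702 contralateral CPM. Stmn2 and Tubb3, a regulator and a subunit of neuronal microtubules, were at 2071 and 2734 CPM in ipsilateral cells, against 2052 and 2447 CPM in contralateral cells. Barcodes outside the Dlx-positive lineage had Dcx at 33.8 ipsilateral and 30.2 contralateral CPM, while Meg3-dominant cells had 980.3 ipsilateral and 982 contralateral CPM and cycling Dlx-positive cells 380.1 ipsilateral and 373 contralateral CPM. With each cell thinned to 5000 UMIs, 92.7% of 164 ipsilateral and 94.5% of 201 contralateral cells had a Dcx UMI (89.3% ipsilaterally and 94.5% contralaterally before thinning), against 4.52% ipsilateral and 4.27% contralateral of myelin-rich barcodes, a class that should lack it; 32 ipsilateral and 19 contralateral cells were too shallow to be thinned. The cells lay far below mature oligodendrocytes in a myelin gene that the rule did not use: Mbp, a main myelin protein, was at 189 ipsilateral and 162 contralateral CPM, against 4881 ipsilateral and 4010.0 contralateral CPM in barcodes outside the Dlx-positive lineage. Meg3-dominant cells were as low, at 202 ipsilateral and 233 contralateral CPM. No microglial, mural, ependymal or red blood cell marker reached 50 UMIs over both libraries.

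The neuroblast markers were not in every cell. All 5 had a UMI in 163 of 196 ipsilateral cells (83.2%) and 189 of 220 contralateral cells (85.9%), and 9 ipsilateral and 7 contralateral cells had fewer than 3 of them. Those 16 cells had 0 ipsilateral and 1 contralateral Dlx6os1 UMI and met the rule through Dlx1 and Dlx2. They held 5.41% of ipsilateral and 1.18% of contralateral UMIs, and carried 47.9% of the ipsilateral and 36.0% of the contralateral UMIs of 12 astrocyte genes. Results that rest on them are given below with and without them. The cells were also not all out of the cell cycle. A sum of 10 or more UMIs over 20 S phase genes or over 20 genes of G2 and mitosis was found in 67 ipsilateral (34.2%) and 71 contralateral cells (32.3%), so only the low Mki67 and Top2a of the rule is meant by non-cycling. The S phase genes summed to 1455 ipsilateral and 1406 contralateral CPM, above the 513 ipsilateral and 555 contralateral CPM of the Meg3-dominant Dlx-positive cells and below the 5707 ipsilateral and 6395 contralateral CPM of the cycling ones. Without the 16 cells the sums were 1322 ipsilateral and 1412 contralateral CPM.

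Some cells lay close to the thresholds. The Dlx sum lay between 3 and 4 per 10000 UMIs in 2 ipsilateral and 3 contralateral members, and between 2 and 3, just outside, in 2 ipsilateral and 3 contralateral barcodes. Exactly 2 Mki67 and Top2a UMIs were found in 8 ipsilateral and 15 contralateral members, and 3 UMIs, just outside, in 4 ipsilateral and 6 contralateral barcodes. Ccnd2 exceeded Meg3 by 1 to 3 UMIs in 13 ipsilateral and 16 contralateral members, and Meg3 exceeded Ccnd2 by 1 to 3 UMIs in 8 ipsilateral and 11 contralateral barcodes, which fell outside. Meg3 equalled Ccnd2 in 4 ipsilateral and 6 contralateral members. Of these, 2 ipsilateral and 3 contralateral members had no UMI of either gene and are called Ccnd2-dominant by the rule alone. The plot of Ccnd2 against Meg3 shows the cells on both sides of the boundary.

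**Figure D1:**
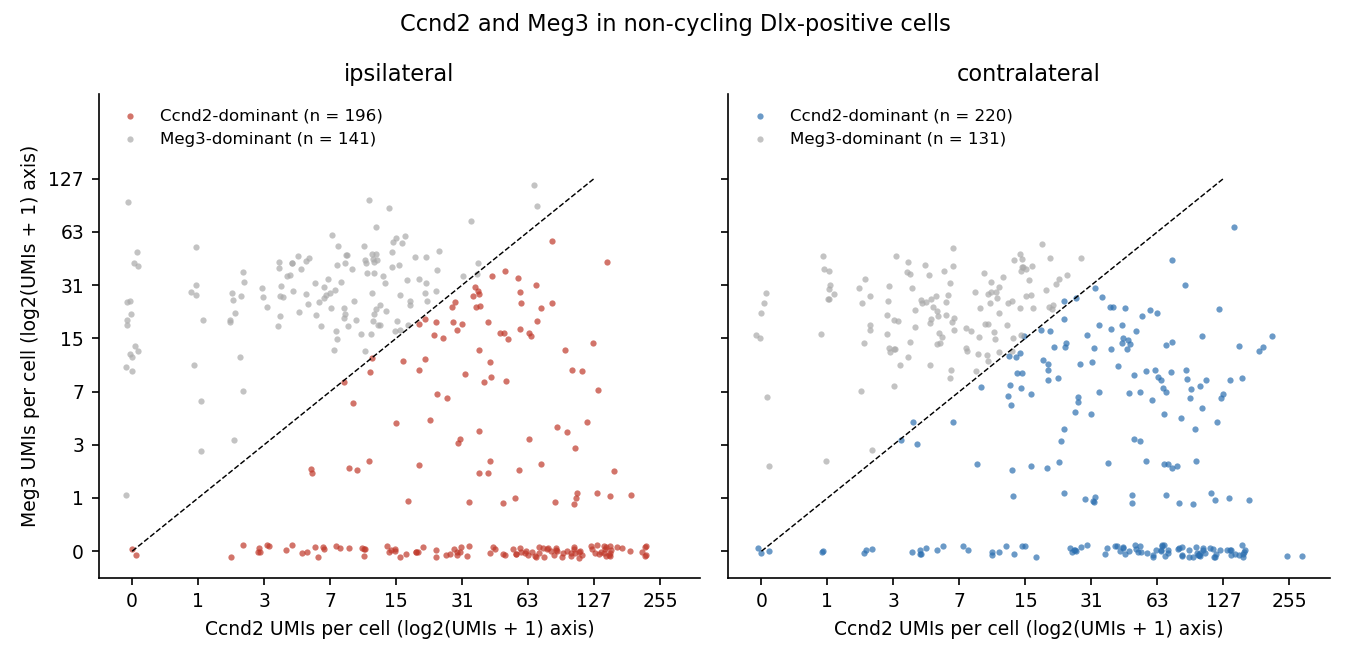
Meg3 UMIs (y axis) against Ccnd2 UMIs (x axis) per cell, both on log2(UMIs + 1) axes, in non-cycling Dlx-positive cells of the ipsilateral (left) and contralateral (right) library; points are cells and the dashed line marks equal counts. The 196 ipsilateral and 220 contralateral Ccnd2-dominant cells lie on or below the line by the rule, with a median of 46 Ccnd2 UMIs on each side, and the 141 ipsilateral and 131 contralateral Meg3-dominant cells lie above it.

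Ccnd2-dominant neuroblasts took a smaller share of the ipsilateral library. They were 7.82% of 2505 ipsilateral barcodes past the filters (6.80 to 8.95%) and 11.5% of 1913 contralateral ones (10.1 to 13.0%), a difference of -3.68 percentage points (-5.50 to -1.89). The whole Dlx-positive lineage did the same, at 19.2% ipsilaterally and 27.5% contralaterally. Within that lineage the share of Ccnd2-dominant cells was 40.8% of 480 ipsilateral cells (36.4 to 45.4%) and 41.8% of 526 contralateral cells (37.6 to 46.2%), which differ by -0.99 points (-7.20 to 5.23). Of the remaining lineage cells, 143 ipsilateral and 175 contralateral cells were cycling and 141 ipsilateral and 131 contralateral cells were Meg3-dominant. Shares are of cells that passed the A2B5 and O4 sort, so that fewer neuroblasts in the tissue, a different yield of the sort and a larger count of other sorted cells cannot be told apart.

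Among the Ccnd2-dominant cells the ipsilateral library held more cells without Meg3. No Meg3 UMI was found in 109 ipsilateral cells (55.6%) and 95 contralateral cells (43.2%), a difference of 12.4 points (2.47 to 22.1). Ccnd2 at 5 or more times a detected Meg3 was found in 35 ipsilateral (17.9%) and 64 contralateral cells (29.1%), a difference of -11.2 points (-19.5 to -2.75). Ccnd2 under 5 times Meg3 was found in 52 ipsilateral (26.5%) and 61 contralateral cells (27.7%). The cells without Meg3 had a median of 11737 UMIs ipsilaterally and 11422 UMIs contralaterally, so their depth was close. Both genes were used to choose the cells, and these shares are described only.

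**Figure D2:**
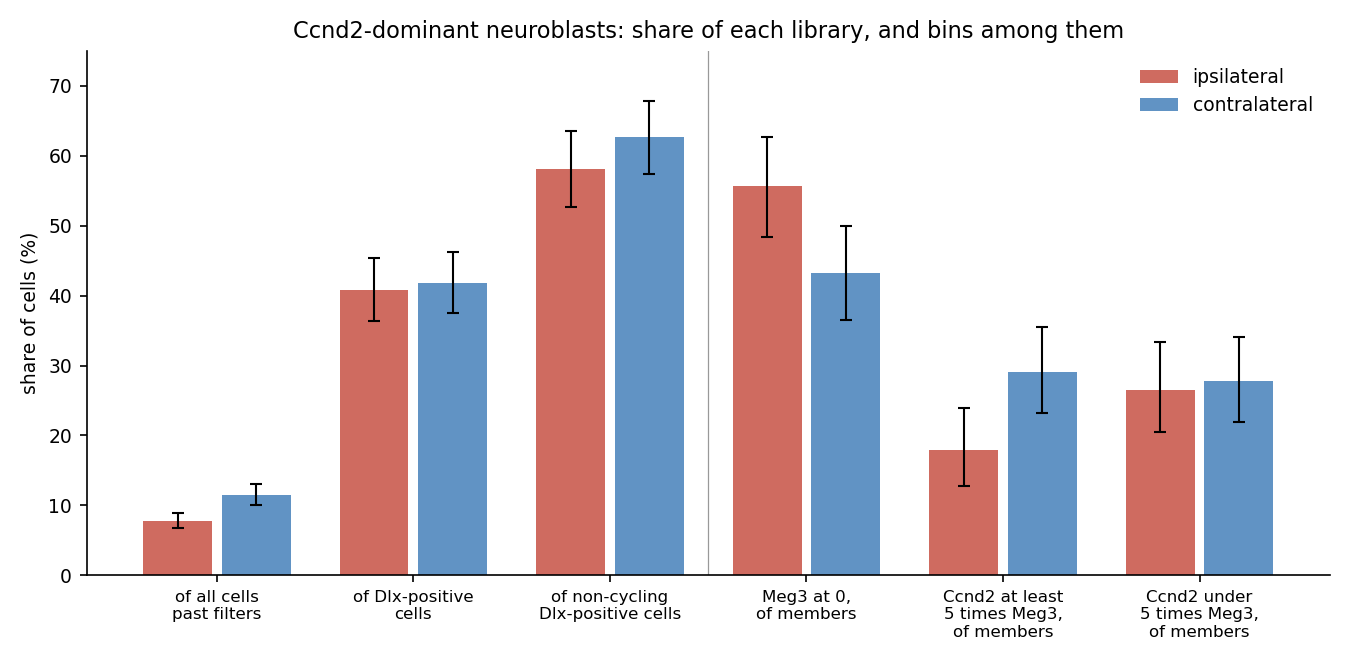
Share of cells (y axis, %) in the ipsilateral (left bar of each pair) and contralateral (right bar) library, with exact binomial 95% intervals for counting error. Ccnd2-dominant cells were 7.82% of ipsilateral and 11.5% of contralateral barcodes, while of them 55.6% of the ipsilateral and 43.2% of the contralateral cells had no Meg3 UMI.

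Most genes had nearly the same level in Ccnd2-dominant cells of both sides. Summed UMIs were compared as log2 of the ratio of ipsilateral to contralateral CPM with 5 CPM added to each, over the 8106 genes with at least 50 UMIs in all. The median log2 ratio was 0.03, 55.5% of genes lay above 0, and 97.0% lay within 1.5-fold. At least 2-fold higher on the ipsilateral side were 13 genes (0.16% of those tested), and at least 2-fold lower were 8 genes (0.0987%). Since 16 cells carried few neuroblast markers, the same counts were made without them, and 9 genes were then higher and 7 lower.

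Named here are the 12 highest and the 12 lowest genes that reached 20 CPM on a side, without mitochondrial, ribosomal, predicted and hemoglobin genes. On the high side, 11 of the 12 are given: Zic1, Nptx2, Mag, Ifi27, Hist1h2ap, Myadm, Ttyh1, Fosb, Fos, Phlda1 and S100a1. The 12 lowest were Id3, Cyr61, Npy, Id2, Cep85l, Hes5, Sos2, Mzt2, Nutf2, Zfp948, Phykpl and Nme2. They include 2 genes of the immediate early list on the high side and 3 genes of BMP and Notch signalling (Id2, Id3, Hes5) on the low side. Over the whole lists, 12 of 14 measured immediate early genes and 5 of 10 measured Notch, Wnt and BMP targets lay above 0, against 55.5% of all genes. How far each rests on a few cells is shown in the plot of the named genes. Outside this choice, the other genes past 2-fold were named after their values were seen. P3h3 was at 1.40 (0.92 without its top cells) and Orai1 at 1.02 (0.96 without them). A330069E16Rik was at -1.17. Gm10076 at 1.86, Rps27rt at -1.33, Gm2000 at -1.16 and Rpl10-ps3 at -1.07 share most of their sequence with a ribosomal protein gene. These 4 genes kept their side of 0 in Meg3-dominant cells, in cycling cells and outside the Dlx-positive lineage. There Gm10076 was at 0.64 to 1.46, and Rps27rt, Gm2000 and Rpl10-ps3 were at -1.67 to -0.87, so their ratios are not particular to Ccnd2-dominant cells.

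**Figure D3:**
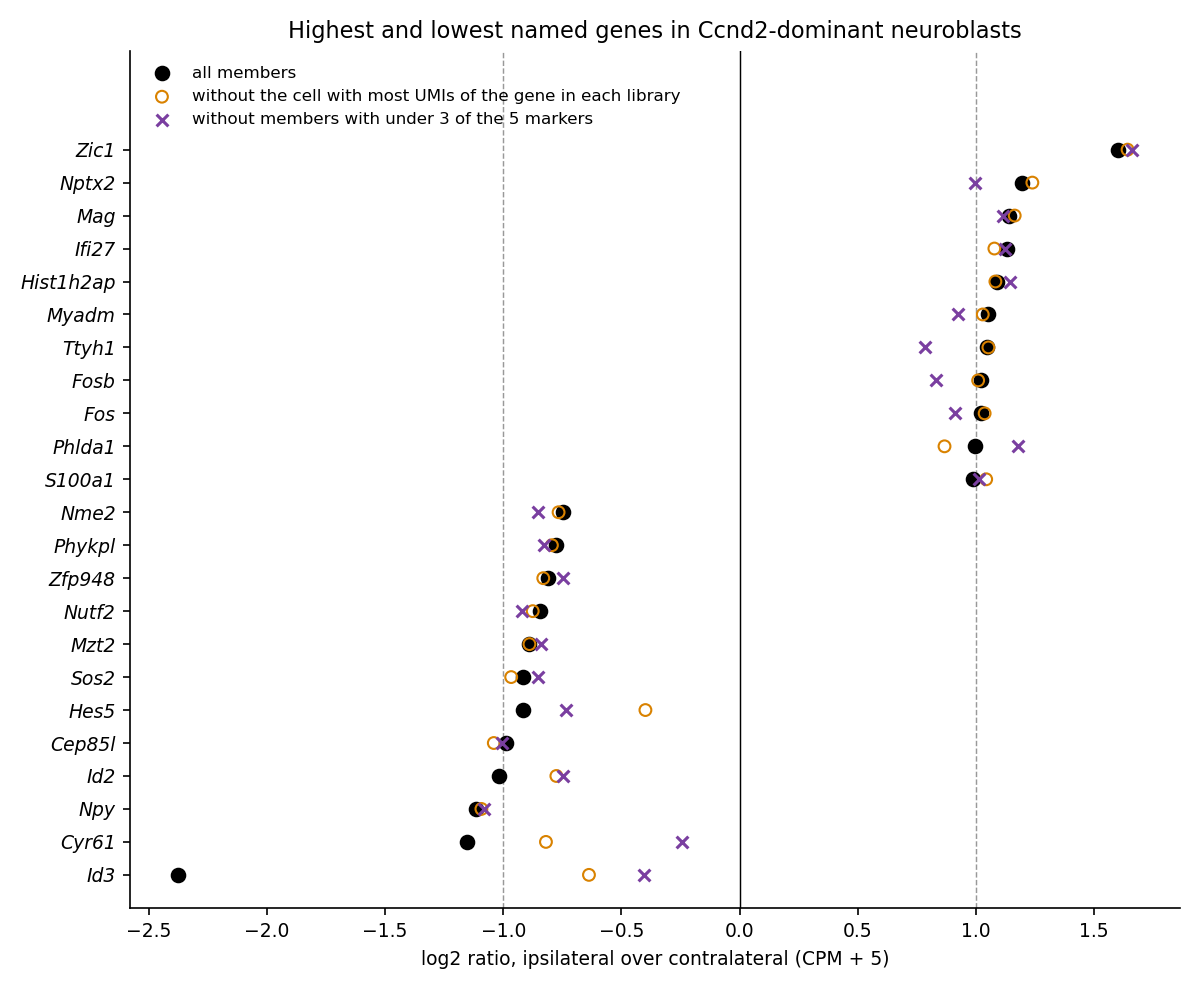
Log2 ratio of ipsilateral to contralateral CPM with 5 CPM added (x axis) of 11 of the 12 highest and the 12 lowest named genes (y axis) in Ccnd2-dominant cells, for all cells (black), without the cell with most UMIs of the gene in each library (open orange) and without the 16 cells with fewer than 3 of the 5 markers (purple crosses). Fos stays near 1 in all 3, at 0.91 without the marker-poor cells, whereas Id3 goes to -0.64 without its top cells and -0.40 without the marker-poor cells, against -2.38 in all cells.

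Most immediate early genes were higher in ipsilateral cells, led by Fos, which encodes a subunit of the AP-1 transcription factor and is switched on within minutes of a stimulus. Fos was at 1035 CPM in ipsilateral cells (993 to 1078) and 507 CPM in contralateral cells (478 to 537), a log2 ratio of 1.02 from 2277 ipsilateral and 1176 contralateral UMIs. It was not carried by a few cells: 168 ipsilateral (85.7%) and 175 contralateral cells (79.5%) had a UMI. Per 10000 UMIs of a cell, the lowest ipsilateral cell had 0, the median 5.59 and the highest 85.7, against a lowest of 0, a median of 3.00 and a highest of 59.3 contralaterally. The ranges overlapped almost wholly, and the medians differed. After thinning to 5000 UMIs, 82.9% of ipsilateral cells (76.3 to 88.3%) and 72.6% of contralateral cells (65.9 to 78.7%) had a Fos UMI, a difference of 10.3 points (1.31 to 18.9). The 16 marker-poor cells held 434 of the ipsilateral and 102 of the contralateral Fos UMIs, and the other cells had 885 ipsilateral and 468 contralateral CPM.

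Of the other AP-1 genes, Fosb was at 81.3 ipsilateral and 37.5 contralateral CPM (log2 1.02), in 57 ipsilateral and 54 contralateral cells. With each cell weighted equally its ratio was 0.37. After thinning, 17.1% of ipsilateral and 11.4% of contralateral cells had a Fosb UMI, a difference of 5.63 points (-1.90 to 13.4). Junb was at 266 ipsilateral and 175 contralateral CPM (0.59), while Jun was at 879 ipsilateral and 741 contralateral CPM (0.25) and Jund at 913 ipsilateral and 755 contralateral CPM (0.27). The 3 Jun genes thus had smaller ratios than Fos. The thinned share with a Junb UMI was 57.3% ipsilaterally and 51.2% contralaterally, a difference of 6.07 points (-4.58 to 16.6). For Fosb and Junb a larger share of positive cells was thus not detectable at this depth. Egr1, a zinc finger transcription factor, was at 1146 ipsilateral and 831 contralateral CPM (0.46). Ier2, a nuclear protein of early growth responses, was at 767 ipsilateral and 507 contralateral CPM (0.59), and Btg2, an antiproliferative gene that also marks neuron-producing divisions, at 415 ipsilateral and 265 contralateral CPM (0.64). The phosphatase gene Dusp1 was at 200.4 ipsilateral and 188 contralateral CPM (0.09), and Klf6 at 105 ipsilateral and 113 contralateral CPM (-0.11). In all, 12 of the 14 measured genes of the list lay above 0, with ratios from -0.36 to 1.02 and a median of 0.34. The 18 listed genes summed to 5913 ipsilateral and 4221 contralateral CPM. Over all genes the share above 0 was 55.5% and the median 0.03. With 1 library per side, a difference in the tissue and one from the dissociation or sorting of each library cannot be told apart.

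The summed level of Fos was also higher ipsilaterally in the other cell classes of the libraries, by smaller ratios. Fos in Meg3-dominant cells was at 1433 ipsilateral and 1302 contralateral CPM, in cycling Dlx-positive cells at 1076 ipsilateral and 700.3 contralateral CPM, and in barcodes outside the Dlx-positive lineage at 2987 ipsilateral and 2731 contralateral CPM. The Ccnd2-dominant cells thus had the lowest contralateral level of these classes. In Meg3-dominant cells the thinned share with a Fos UMI went the other way, at 85.6% ipsilaterally and 90.1% contralaterally, a difference of -4.51 points (-13.7 to 5.01). Junb did not follow this order, with log2 ratios of 0.67 in Meg3-dominant cells and 0.65 in barcodes outside the lineage. The list's median ratio was 0.22 in Meg3-dominant, 0.26 in cycling and 0.04 outside the lineage, and the difference between classes was not tested. Within the Ccnd2-dominant cells, Fos was at 1139.8 ipsilateral and 543 contralateral CPM where Meg3 was at 0, at 753 ipsilateral and 430.1 contralateral CPM where Ccnd2 was 5 or more times Meg3, and at 1018 ipsilateral and 539 contralateral CPM where it was under 5 times. The ipsilateral level was the higher in all 3 bins.

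**Figure D4:**
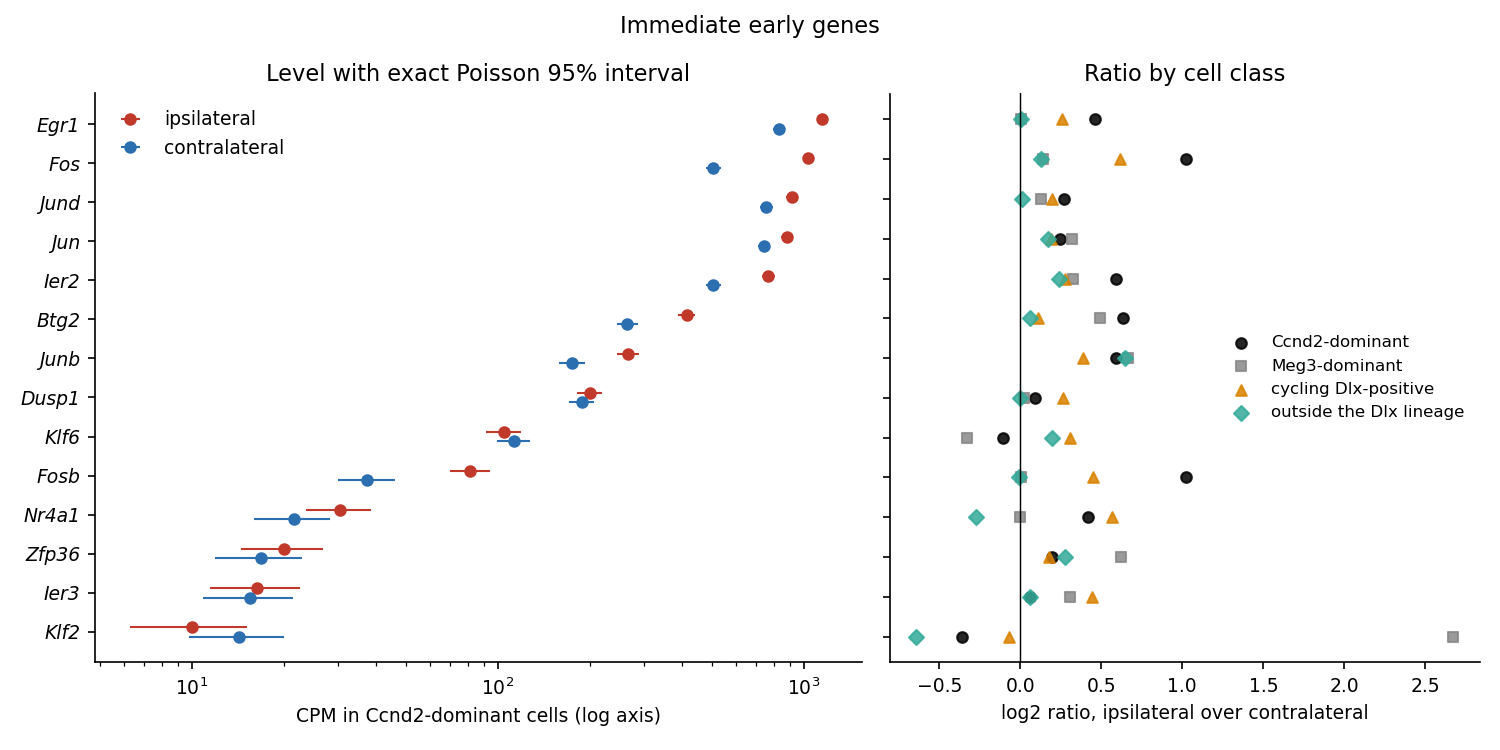
Immediate early genes in Ccnd2-dominant cells. The left panel gives CPM (x axis, log) of each gene (y axis) in ipsilateral and contralateral cells with exact Poisson 95% intervals for counting error, and the right panel the log2 ratio of ipsilateral to contralateral CPM (x axis) in each cell class. Fos, at 1035 ipsilateral and 507 contralateral CPM, and Fosb, at 81.3 ipsilateral and 37.5 contralateral CPM, lie farthest to the right in the Ccnd2-dominant cells, and 12 of the 14 measured genes lie above 0.

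The promoters of Fos, Fosb and Junb are shown because these genes carried some of the largest differences of the list, and cAMP and calcium signals act on Fos through a short element with the core TGACG. Each is the 250 bases before the RefSeq transcription start (build GRCm38.p6), read 5′ to 3′ on the gene's strand, with every TGACG or its reverse complement CGTCA and every TATAAA in capitals. The windows are chr12:85473640-85473889 on the plus strand for Fos, chr7:19310046-19310295 on the minus strand for Fosb and chr8:84978749-84978998 on the minus strand for Junb.
Fos: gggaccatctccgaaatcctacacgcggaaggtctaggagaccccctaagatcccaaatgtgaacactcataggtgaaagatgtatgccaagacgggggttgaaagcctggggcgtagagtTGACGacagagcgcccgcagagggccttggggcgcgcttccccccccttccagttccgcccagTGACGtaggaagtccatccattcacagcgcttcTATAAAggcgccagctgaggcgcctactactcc
Fosb: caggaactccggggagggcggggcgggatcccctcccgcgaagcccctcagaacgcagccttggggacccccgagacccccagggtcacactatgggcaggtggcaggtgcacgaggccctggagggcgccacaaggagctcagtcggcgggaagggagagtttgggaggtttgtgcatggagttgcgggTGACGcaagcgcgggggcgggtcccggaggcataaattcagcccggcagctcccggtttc
Junb: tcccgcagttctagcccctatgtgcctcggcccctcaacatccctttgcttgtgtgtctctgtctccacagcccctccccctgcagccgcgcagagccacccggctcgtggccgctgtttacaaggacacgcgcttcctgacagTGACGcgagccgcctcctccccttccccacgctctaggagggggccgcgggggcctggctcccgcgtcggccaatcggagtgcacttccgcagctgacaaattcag
In the Fos window, TGACG stood 129 to 125 and 66 to 62 bases before the start, and TATAAA 33 to 28 bases before it. In the Fosb window TGACG stood 60 to 56 bases, and in the Junb window 106 to 102 bases, before the start. Searched on both strands, TGACG was in the windows of 7 of the 12 immediate early genes with an entry (Btg2, Dusp1, Fos, Fosb, Junb, Klf2 and Nr4a1) and in 17.8% of 32851 mouse promoter windows of the same length. TATAAA was in the window of Fos alone among the 12 and in 12.4% of all windows, and the CArG box, the element of serum response factor, was in the window of Zfp36 alone and in 1.47% of all windows. These are matches of letters, and no binding was measured here. An element more than 250 bases before the start, or one that departs from the searched letters, would be missed, so a window without a match does not show that the gene lacks the element.

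Zic1 had the highest ratio among the named genes and lay in few cells. It encodes a zinc finger transcription factor of a subset of olfactory bulb interneuron precursors. It was at 45.4 ipsilateral and 11.6 contralateral CPM (log2 1.60), from 100 UMIs in 18 ipsilateral cells and 27 UMIs in 14 contralateral cells. Cells with 3 or more Zic1 UMIs numbered 10 ipsilaterally, holding 90 of the UMIs, and 3 contralaterally, holding 12. Every one of these 13 cells also had Dlx6os1 and Dcx, and 8 of the 10 ipsilateral and 3 of the 3 contralateral cells had Sp8 and, in the same numbers, Pax6, transcription factors of olfactory interneuron precursors. Over all Ccnd2-dominant cells the shares were 89.8% ipsilaterally and 91.4% contralaterally for Dlx6os1, 89.3% ipsilaterally and 94.5% contralaterally for Dcx, 72.4% ipsilaterally and 71.8% contralaterally for Sp8, and 55.1% ipsilaterally and 50.5% contralaterally for Pax6. Zic4, the neighbour of Zic1 in the genome and chosen here after its values were seen, had 23 UMIs in 7 ipsilateral cells and 0 UMIs contralaterally. It thus fell short of the 50 summed UMIs asked of a measured gene. Its ipsilateral 10.5 CPM was 8.08-fold a contralateral floor of 3 counts over the library (1.29 CPM), a ratio that leaves out the ipsilateral counting error. For the share of cells with a UMI, 0 of 220 cells allows up to 1.66%, which does not limit how many cells express the gene. Both genes were in 6 ipsilateral and 0 contralateral cells. After thinning, 7.93% of ipsilateral and 4.48% of contralateral cells had a Zic1 UMI (9.18% ipsilaterally and 6.36% contralaterally before thinning), a difference of 3.45 points (-1.85 to 9.22), so a larger share of positive cells was not detectable at this depth. In Meg3-dominant cells the log2 ratio of Zic1 was -0.12 and in cycling cells 0.49.

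Myelin and interferon-linked transcripts were also above their contralateral level. Mag, an adhesion protein of myelin, was at 87.7 ipsilateral and 37.1 contralateral CPM (log2 1.14) and had a UMI in 111 ipsilateral (56.6%) and 63 contralateral cells (28.6%). All 11 measured genes of the mature oligodendrocyte list lay above 0, with a median of 0.42, although the rule had capped 3 of its 12 genes. In cycling cells 11 of 11 measured genes did (median 0.72), in Meg3-dominant cells 8 of 9 (0.30) and outside the lineage 11 of 12 (0.12). Mag itself had a log2 ratio of 1.27 in cycling and 0.63 in Meg3-dominant cells. These ratios are thus not particular to Ccnd2-dominant cells. Cldn11, a tight junction protein of myelin, was at 113 ipsilateral and 66.4 contralateral CPM (0.73). Mag was also found at a similar share in cells that should lack it. After thinning, Mag had a UMI in 36.0% of ipsilateral and 15.4% of contralateral Ccnd2-dominant cells, and in 30.1% of ipsilateral and 15.8% of contralateral endothelial barcodes, whose median depth was 8467 UMIs ipsilaterally and 8282 UMIs contralaterally. The part of free RNA in the difference was not tested. Of 12 oligodendrocyte precursor genes 4 were measured, with ratios of -0.24 to 0.74 and a median of 0.42. Olig2, a transcription factor of the oligodendrocyte lineage, had the lowest ratio, from 33 ipsilateral and 43 contralateral UMIs. Olig1, its relative and the highest, had 44.5 ipsilateral and 24.6 contralateral CPM (0.74), with a UMI in 38.8% of ipsilateral and 21.4% of contralateral cells, and a thinned share of 19.5% ipsilaterally and 9.45% contralaterally, against 16.8% ipsilaterally and 10.3% contralaterally in endothelial barcodes. In Meg3-dominant cells the thinned share was 24.6% ipsilaterally and 9.90% contralaterally, and in cycling cells 12.8% ipsilaterally and 8.09% contralaterally.

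Ifi27, an interferon-induced protein, was at 65.4 ipsilateral and 27.2 contralateral CPM (log2 1.13), with a UMI in 84 ipsilateral (42.9%) and 48 contralateral cells (21.8%). In barcodes outside the Dlx-positive lineage it was at 209 ipsilateral and 106 contralateral CPM, in cycling cells at 66.1 ipsilateral and 35.5 contralateral CPM, and in Meg3-dominant cells at 36.4 ipsilateral and 39.1 contralateral CPM. The remaining interferon genes were scarcely detected: of 23 listed genes 2 were measured, the other being Ifit2 at 15.9 ipsilateral and 9.91 contralateral CPM (0.49), and the list summed to 127 ipsilateral and 71.6 contralateral CPM. H2-D1, which presents peptides to T cells, was at 33.2 ipsilateral and 18.5 contralateral CPM (0.70). It was the highest of 3 measured MHC class I genes, which ranged down to -0.21, and the list summed to 313 ipsilateral and 300.4 contralateral CPM. Stat3, the transcription factor of cytokine signals, was at 53.2 ipsilateral and 28.9 contralateral CPM (0.78), while 2 of the 4 measured genes of its list lay above 0.

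Of the other high genes, Nptx2, a secreted pentraxin that gathers AMPA receptors at synapses, was at 34.1 ipsilateral and 12.1 contralateral CPM (log2 1.19) and had a UMI in 37 ipsilateral and 20 contralateral cells. Hist1h2ap, a replication-dependent histone, was at 451 ipsilateral and 209 contralateral CPM (1.09) and higher in every other class too, with ratios of 1.17 in Meg3-dominant, 0.97 in cycling and 0.78 in barcodes outside the Dlx-positive lineage. Its value is uncertain, since 93.4% of the 31-base words of its transcripts occur in other genes, mostly other histones. Myadm, Ttyh1, Phlda1 and S100a1 had at most 33.2 CPM on a side and ratios of 0.99 to 1.05.

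Several of the lowest genes had many of their contralateral UMIs in 1 cell. Id3, a helix-loop-helix inhibitor induced by BMP signals, was at 2.27 ipsilateral and 32.8 contralateral CPM (log2 -2.38), but 1 contralateral cell held 63 of the 76 contralateral UMIs. The same cell held 34 of the 54 UMIs of Cyr61, a matrix protein of YAP signalling (7.72 ipsilateral and 23.3 contralateral CPM, -1.15), and 34 of the 125 of Id2 (24.1 ipsilateral and 53.9 contralateral CPM, -1.02). That cell had 10800 UMIs, 5 of them Ccnd2, and 246 UMIs of astrocyte genes. Without the marker-poor cells the log2 ratios were -0.40 for Id3, -0.24 for Cyr61 and -0.75 for Id2. Id2 was the most widespread of these, with a UMI in 31 ipsilateral and 40 contralateral cells and a ratio of -0.78 without its top cells. Npy, a neuropeptide, was at 7.27 ipsilateral and 21.6 contralateral CPM (-1.11), with 12 of its 16 ipsilateral and 28 of its 50 contralateral UMIs in 1 cell each, and a ratio of -1.09 without these. Hes5, a Notch target, was at 20.0 ipsilateral and 42.2 contralateral CPM (-0.92). It had 20 of its 44 ipsilateral and 61 of its 98 contralateral UMIs in 1 cell each, and a ratio of -0.40 without these.

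Other low genes were less gathered in single cells. Cep85l, a centrosomal protein needed for neuronal migration, was at 7.72 ipsilateral and 20.3 contralateral CPM (log2 -0.99), in 16 ipsilateral and 40 contralateral cells. Sos2, an activator of Ras, was at 9.09 ipsilateral and 21.6 contralateral CPM (-0.91), in 18 ipsilateral and 44 contralateral cells. Mzt2, a subunit of microtubule-nucleating complexes, was at 18.2 ipsilateral and 37.9 contralateral CPM (-0.89), in 36 ipsilateral and 67 contralateral cells. Nutf2, which imports Ran into the nucleus, and Nme2, a nucleotide kinase, were lower in every other class as well, with log2 ratios of -0.84 and -0.75 in Ccnd2-dominant cells and between -0.99 and -0.70 elsewhere. Both are uncertain, because 43.4% of the 31-base words of Nutf2 and 47.9% of those of Nme2 occur in other genes.

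The genes that define a neuroblast of this lineage hardly differed. Of 21 transcription factors, all measured, 14 lay above 0, with a median of 0.02 and a sum of 22773 ipsilateral and 21883 contralateral CPM. Pax6 was the farthest apart, at 321 ipsilateral and 227 contralateral CPM (log2 0.49). Nfia and Nfix, factors of glial and neuronal maturation, were at 679 and 1464 CPM in ipsilateral cells, against 560.4 and 1228 CPM in contralateral cells (0.27 and 0.25). Sp8 was at 255 ipsilateral and 262 contralateral CPM, and Prox1 at 144 ipsilateral and 161 contralateral CPM (-0.16). The 24 cytoskeletal genes of young neurons had ratios between -0.20 and 0.18, with 13 above 0. Genes of striatal projection neurons were low on both sides: 4 of 16 were measured, with a sum of 289 ipsilateral and 300.0 contralateral CPM, and Foxp2 was at 29.1 ipsilateral and 47.8 contralateral CPM (-0.63). For genes of the medial ganglionic eminence, the sums were 217 ipsilateral and 206 contralateral CPM, and for pallial glutamatergic genes 13.6 ipsilateral and 17.2 contralateral CPM.

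Receptors and guidance genes were balanced, with 12 of 23 measured genes above 0 and a median of 0.00. Vldlr, a reelin receptor of migrating neurons, was at 25.4 ipsilateral and 41.4 contralateral CPM (log2 -0.61). The semaphorin co-receptors Plxna4 and Plxna2 were at 86.3 and 105 CPM in ipsilateral cells, against 125 and 140.1 CPM in contralateral cells (-0.51 and -0.39). Epha5, an ephrin receptor, was at 40.4 ipsilateral and 30.6 contralateral CPM (0.35). Of 8 measured genes of GABA synthesis, transport and reception and of chloride transport, 6 lay above 0 (median 0.09), and of 13 measured genes of later neurons 6 did (median -0.00). Ntrk2, the receptor of BDNF, was at 121 ipsilateral and 76.7 contralateral CPM (0.62), among 7 measured growth factor and receptor genes with a median of 0.16.

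The median of the progenitor genes, but not their sum, changed sign with the 16 marker-poor cells. Over all Ccnd2-dominant cells 14 of 23 measured genes lay above 0, with a median of 0.18, and without those cells the median was -0.15. The list summed to 3271 ipsilateral and 2861 contralateral CPM in all cells, and to 2999 ipsilateral and 2715 contralateral CPM without the marker-poor ones. Egfr, the growth factor receptor of transit-amplifying progenitors, had 27 of 60 ipsilateral and 4 of 49 contralateral UMIs in the marker-poor cells. Among cell cycle genes, 12 of 19 measured S phase genes lay above 0 (median 0.10, and -0.05 without the marker-poor cells) and 2 of 8 measured genes of G2 and mitosis (median -0.21), of which Top2a was held low by the rule. Of 15 measured cyclin and CDK inhibitor genes 8 lay above 0; Cdkn1c, an inhibitor that stops the cycle, was at 22.3 ipsilateral and 36.6 contralateral CPM (-0.61), and Btg1, which slows division, at 1199.5 ipsilateral and 1400.0 contralateral CPM (-0.22).

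The medians of the stress and metabolic lists lay between -0.08 and 0.16, against 0.03 over all genes. Of 26 oxidative phosphorylation genes 5 lay above 0, against 55.5% of all genes, with a median of -0.08. The list summed to 9715 ipsilateral and 10398 contralateral CPM, and the other 21 genes lay below 0, by at most 0.28. Of 14 measured genes of hypoxia and glycolysis 11 lay above 0, with a median of 0.16; the glycolytic enzyme Eno1 was at 179 ipsilateral and 121 contralateral CPM (log2 0.54). The medians were 0.03 for 8 heat shock genes, 0.09 for 9 genes of the integrated stress response, 0.03 for 14 genes of p53 and cell death and -0.06 for 20 genes of cholesterol synthesis. Single genes lay farther out, down to -0.72 for p53 and cell death, -0.68 for hypoxia and glycolysis and -0.61 for the integrated stress response. The highest heat shock gene was at 0.66. Among 10 measured targets of Notch, Wnt and BMP signals, 5 lay above 0. In these 7 lists no measured gene reached 2-fold apart from Id2 and Id3.

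The Ccnd2-dominant cells stood between the cycling and the Meg3-dominant Dlx-positive cells, as the rule places them, and some other genes are described along the same bins. From cycling cells, through Meg3 at 0, Ccnd2 at 5 or more times Meg3 and Ccnd2 under 5 times Meg3, to Meg3-dominant cells, the S phase genes summed to 5707, 1969, 1132, 506 and 513 CPM ipsilaterally and to 6395, 2069, 1002, 636 and 555 CPM contralaterally. Insm1, a factor of newborn neurons, was at 745, 567, 425, 259 and 174 CPM ipsilaterally and at 651, 518, 319.8, 204 and 162 CPM contralaterally. Robo2, a receptor for the repellent Slit, ran the other way, at 55.2, 115, 210.2, 341 and 455 CPM ipsilaterally and at 46.9, 131, 159, 318 and 387 CPM contralaterally. Stmn2 and Dlx6os1 were highest within the Ccnd2-dominant bins: Stmn2 was at 695, 1732, 2476, 2536 and 1784 CPM ipsilaterally and at 618, 1515, 2470.2, 2551 and 2012 CPM contralaterally. Prokr2, a receptor that guides neuroblasts into the olfactory bulb, was at 41.9 ipsilateral and 69.3 contralateral CPM in the last Ccnd2-dominant bin and at 362 ipsilateral and 239 contralateral CPM in Meg3-dominant cells.

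**Figure D5:**
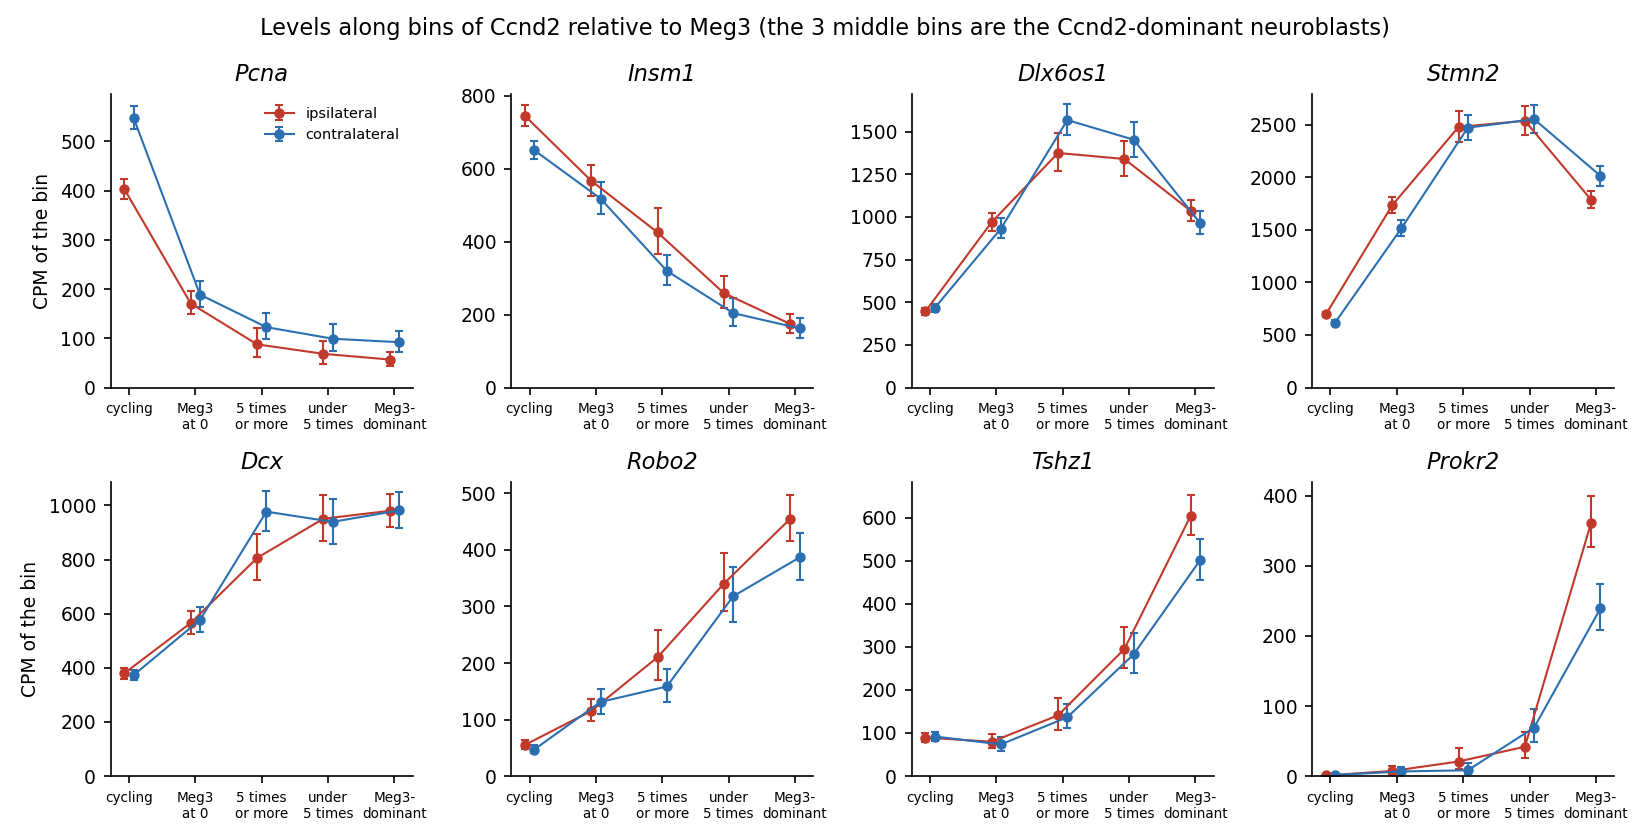
CPM (y axis, linear from 0) of single genes across 5 bins (x axis, from cycling to Meg3-dominant Dlx-positive cells) in the ipsilateral and contralateral library, with exact Poisson 95% intervals for counting error. The 3 middle bins are the Ccnd2-dominant cells; Robo2 climbs along the bins to 455 ipsilateral and 387 contralateral CPM while Insm1 descends to 174 ipsilateral and 162 contralateral CPM.

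Because the rule split these classes by Ccnd2, Meg3, Mki67 and Top2a, the contrasts with them describe the split. Against Meg3-dominant cells, 129 of 9042 genes (1.43%) were at least 2-fold higher and 157 (1.74%) at least 2-fold lower in both libraries. Mdk, a heparin-binding growth factor, was at 571 CPM in Ccnd2-dominant and 65.3 CPM in Meg3-dominant cells ipsilaterally, and at 503 CPM in Ccnd2-dominant and 39.1 CPM in Meg3-dominant cells contralaterally. Vim, the intermediate filament of progenitors, was at 518 CPM in Ccnd2-dominant and 69.0 CPM in Meg3-dominant cells ipsilaterally, and at 409 CPM in Ccnd2-dominant and 46.0 CPM in Meg3-dominant cells contralaterally. Against cycling cells, 188 of 10304 genes (1.82%) were at least 2-fold higher and 478 (4.64%) at least 2-fold lower in both libraries. Islr2, a membrane protein of growing axons, was at 326 CPM in Ccnd2-dominant and 42.5 CPM in cycling cells ipsilaterally, and at 294 CPM in Ccnd2-dominant and 57.3 CPM in cycling cells contralaterally, and the lower genes were led by mitotic genes such as Nusap1, Hmmr and Spc25.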

How the data were processed

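The authors deposited raw UMI counts per gene and cell barcode for 31053 genes, which per the submitters' processing notes came from Cell Ranger 3.1.0 and the build mm10. Its gene annotation and strand setting were not given in the sources used here, so antisense and near-identical genes are uncertain; shared 31-base words were counted in GENCODE M21 transcripts. The cells, the lists and the tests were chosen with earlier results of these data known.

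From the deposited counts, barcodes were selected by the stated rule, and their UMIs were summed per library into CPM. Levels have exact Poisson, shares exact Clopper-Pearson and differences of shares Newcombe 95% intervals. Genes needed 50 summed UMIs; ratios are log2 with 5 CPM added. Named were the 12 highest and 12 lowest genes with at least 20 CPM on a side (mitochondrial, ribosomal, predicted and hemoglobin genes left out), the genes of the rule, the 5 markers, up to 4 members of each list by size of ratio or for their role, and genes that lead the contrasts with other classes; 1 of the 12 highest genes is not reported here. Thinning drew 5000 UMIs per cell. Scrublet in scanpy 1.11.5 called 11 ipsilateral and 14 contralateral barcodes, none of them among the Ccnd2-dominant cells, and no barcode was removed for it. The summing was tested on simulated data. Tools were Python 3.11.15, numpy 2.4.6, scipy 1.17.1 and pandas 2.3.3. Promoter windows came from RefSeq (GRCm38.p6).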

Additional observations from a re-analysis of the deposited data

Results flagged for a closer look

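Among the named genes, 2 lay on opposite sides of 0 in the Ccnd2-dominant and the Meg3-dominant cells by at least 2-fold each; the differences were not tested. Id3 had a log2 ratio of -2.38 in Ccnd2-dominant cells and of 2.44 in Meg3-dominant cells, where it was at 59.7 ipsilateral and 6.91 contralateral CPM. Cyr61 had a log2 ratio of -1.15 in Ccnd2-dominant cells and of 1.72 in Meg3-dominant cells, where it was at 49.4 ipsilateral and 11.5 contralateral CPM. In the Ccnd2-dominant cells, 1 contralateral cell held 63 of the 76 contralateral Id3 UMIs and 34 of the 54 contralateral Cyr61 UMIs. Without the marker-poor cells the log2 ratios in Ccnd2-dominant cells were -0.40 for Id3 and -0.24 for Cyr61. In the Meg3-dominant cells markers of other cell types were also higher ipsilaterally: 10 endothelial genes summed to 769 ipsilateral and 337 contralateral CPM, with 3 of 3 measured genes above 0, and 12 astrocyte genes to 908 ipsilateral and 505 contralateral CPM, with 7 of 7 measured genes above 0. Their part in the result was not tested.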

How the results depend on the processing

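No paired analysis was possible because each side has 1 library and the labels give no replicate numbers. In all 20 alternatives were run, 3 of them (cells under 2000 UMIs, cells rich in cycle UMIs and marker-poor cells left out) chosen after seeing the data. Not every alternative bears on every result: the difference in the share of Ccnd2-dominant cells was recomputed in 9 and lay between -3.80 and -2.96 points, and the gene counts in 19. The count of genes at least 2-fold higher, 13, became 30 with 1 CPM added, 4 with 20 CPM added, 22 with no UMI minimum, 5 with at least 200 UMIs, 23 with each cell weighted equally and 21 without cells rich in S phase or G2/M UMIs. The count at least 2-fold lower, 8, became 15 with 1 CPM added, 2 with 20 CPM added, 20 with no minimum, 3 with at least 200 UMIs, 14 with equal weights, and 5 with a Dlx sum of at least 6 or without cells with a microglial UMI. The cause was not tested. Of the 23 highest and lowest genes given, 22 kept their sign in every alternative; Cyr61 was at 0.65 with a Dlx sum of at least 6. Fos stayed between 0.87 and 1.11, and the immediate early median between 0.26 and 0.58. Median-of-ratios size factors differed from the totals by a ratio of 1.02. Pooled animals, 1 library per side and 2200907 ipsilateral and 2319933 contralateral UMIs limit what can be seen: a gene with 0 UMIs could lie at up to 1.36 ipsilateral or 1.29 contralateral CPM.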
